A study of Canis lupus familiaris with 6 samples.

Results

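Interleukin-6 and its relatives are 4-helix cytokines that share the signalling receptor chain gp130, the product of IL6ST. IL-6 first binds a receptor of its own, the IL-6 receptor (IL6R), while the oncostatin M receptor (OSMR) pairs with gp130 to bind its ligand. The complex with gp130 activates Janus kinases and the transcription factor STAT3. STAT3 turns on SOCS3, which binds gp130 and shuts the signal down. In bone, the family is known for acting on osteoblasts, which answer it with RANKL and osteoclast formation, and oncostatin M is also known to favour osteoblast formation.

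Transcript levels of 9 genes of this family were taken from 6 Affymetrix canine arrays. The genes are the ligands IL6, OSM, LIF and IL11, the receptor chains IL6R, OSMR and IL6ST, the transcription factor STAT3 and the feedback inhibitor SOCS3. Every probe set annotated to 1 of these symbols alone was used, which gave 14 of the 42860 probe sets in the table and at least 1 for each gene. IL6, OSM, LIF, IL11, OSMR and IL6ST have 1 probe set each, IL6R and SOCS3 have 2, and STAT3 has 4. By their names 6 of the 14 belong to the Cfa and 8 to the CfaAffx set of the array, and 8 end in _s_at, the suffix for probes that match more than 1 transcript.

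The tissue was mandible of beagle dogs aged 9 years. Holes of 4.5 mm diameter and 8 mm length were drilled 3 months after premolar extraction, and each was either implanted with beta-TCP (beta-tricalcium phosphate), a ceramic that serves as resorbable filler for bone defects, or left without it as control. Cylinders of the same size were collected at 4, 7 and 14 days, so there are 6 groups with 1 array each. All sites, controls included, had been through extraction, healing and drilling, and no undrilled bone was analysed here. How many dogs were used, and which specimens came from the same dog, is not stated in the labels, so a difference between arrays may be one between dogs.

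A level below is a probe set's signal divided by the median of its array, so that 1 is the array median. A difference is beta-TCP minus control on the scale log2(level + 1), and at least 2-fold means a difference of 1 or more in size. This scale understates differences of probe sets near or under the array median. Levels of different probe sets are not set against each other. With 1 array a group, a difference on a single day has no replicate check and no test, and in whole specimens fewer cells of a type cannot be told apart from less RNA per cell.

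The arrays were not equally alike. Over all probe sets, the Spearman correlation of the beta-TCP day 14 array with the other 5 ran between 0.723 and 0.779, and that among those 5 between 0.832 and 0.905. Values for day 14 were deposited on another scale (medians 6.2 with beta-TCP and 12 in control) than those for days 4 and 7 (medians of 1). In 1639 genes with a high mean level on both kinds of probe set, CfaAffx minus Cfa, centred over the arrays, had a median of 0.40 with beta-TCP and 0.37 in control at day 4. The medians were 0.20 and 0.03 at day 7, and -0.81 and -0.19 at day 14, in the same order. On each array, 3 to 7 of 8 osteoblast and 7 of 7 fibroblast markers lay at or over the array median. So did 5 to 6 of 6 endothelial and 8 to 9 of 9 macrophage markers. The osteoblast count was 3 on the beta-TCP array of day 4 and on the control array of day 14. That is under the 50% of all probe sets that lie over a median, so it does not show presence.

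Across the family, oncostatin M was the gene that stood at least 2-fold lower with beta-TCP on 2 days, SOCS3 was lower at day 4, and IL6 and OSMR were lower at day 14. At day 4, 3 of the 14 probe sets were at least 2-fold lower (OSM and both of SOCS3) and 0 higher, where 2.06% of all 42680 probe sets used were lower and 2.66% higher. At day 7, 1 was lower (OSM) and 0 higher, beside 1.97% and 2.05% of all. At day 14, 2 were lower (IL6 and OSMR) and 0 higher, beside 10.1% and 3.76% of all. The median difference of the 14 probe sets was -0.32 at day 4, -0.05 at day 7 and -0.18 at day 14, against 0.04, -0.02 and -0.05 over all probe sets. The day 14 share of 2 in 14 lies near the 10.1% of all probe sets. The members were chosen with earlier results of these data known, so shares over all probe sets do not test them. Of the 14, 3 were lower on all 3 days (OSM, the leading STAT3 probe set and the second of SOCS3), beside 13.2% of all, and 0 were higher on all 3, beside 10.3%.

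**Figure D1:**
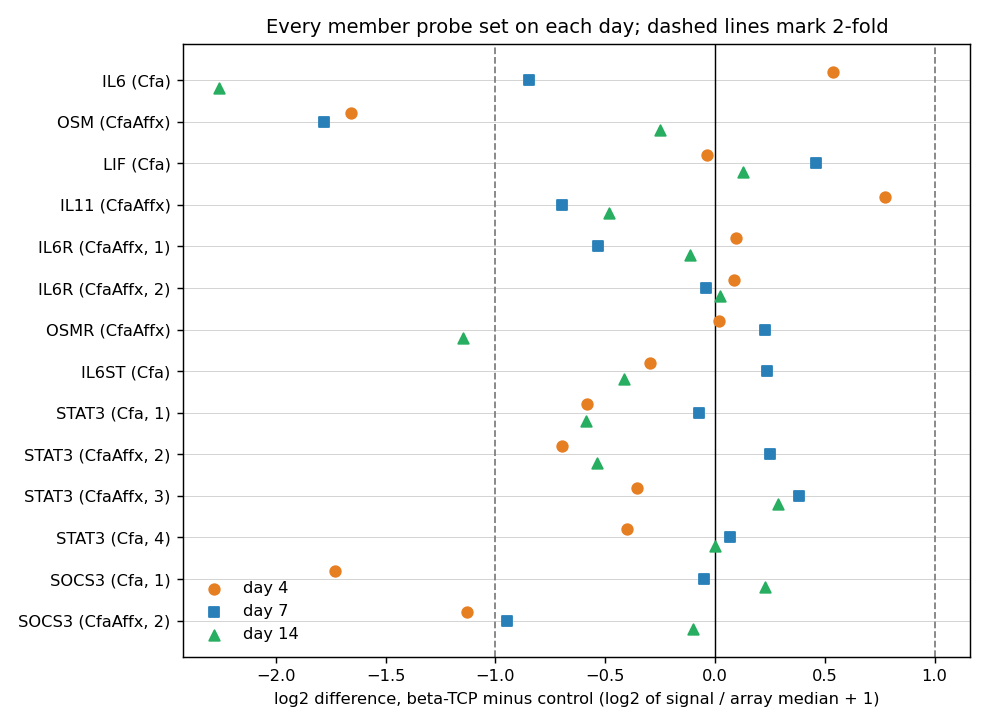
Log2 difference, beta-TCP minus control, of each of the 14 probe sets at day 4 (circles), day 7 (squares) and day 14 (triangles), numbered by mean level within a gene. OSM and SOCS3 lie farthest to the left at day 4, OSM at day 7 (-1.78) and IL6 at day 14 (-2.26), and no point reaches the dashed line of 2-fold higher.

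Interleukin-6, the family's founding cytokine and a signal from stromal cells and macrophages, had its highest level at day 7 in both treatments. Its level was 17.4 with beta-TCP and 11.7 in control at day 4. At day 7 it was 70.7 with beta-TCP and 128 in control, and at day 14 it was 12.9 with beta-TCP and 65.4 in control. At day 14 the beta-TCP site was near its own level of day 4 while the control site was near the beta-TCP level of day 7. The difference between treatments was 0.54 at day 4, -0.85 at day 7 and -2.26 at day 14, so the sign at day 4 was opposite to that on the later days. In ratios of levels, beta-TCP over control, this is 1.49, 0.552 and 0.197. Day 7 minus day 4 was 1.96 on the beta-TCP arrays and 3.34 on the control arrays, while 2.98% and 8.40% of all probe sets were at least 2-fold higher between those days. Day 14 minus day 7 was -2.37 with beta-TCP and -0.96 in control, with 12.1% and 4.16% of all probe sets at least 2-fold lower.

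Oncostatin M, made mainly by activated neutrophils, macrophages and T cells, was lower with beta-TCP on every day. The level was 4.26 with beta-TCP and 15.6 in control at day 4. It was 0.465 with beta-TCP and 4.03 in control at day 7, and 0.0645 with beta-TCP and 0.267 in control at day 14. The beta-TCP array of day 4 (4.26) thus read close to the control array of day 7 (4.03), and on 3 of the 6 arrays OSM lay under the array median. The differences were -1.66, -1.78 and -0.25 at days 4, 7 and 14. With a pseudocount of 4 the day 7 difference was -0.85, and with 16 those of days 4 and 7 were -0.64 and -0.28, all short of 2-fold. At day 14 both levels were in the lower part of the array, at percentiles 7.56 with beta-TCP and 24.1 in control, where the scale compresses a ratio of levels of 0.242. Between days 4 and 7 OSM was lower by a similar amount in both treatments, with differences of -1.84 with beta-TCP and -1.72 in control.

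LIF, the leukaemia inhibitory factor, which signals through gp130 and the LIF receptor, lay under the array median on all 6 arrays. Its level ran between 0.05 (control, day 14) and 0.578 (beta-TCP, day 7). The differences were -0.04, 0.46 and 0.13 at days 4, 7 and 14. IL11, known for driving osteoclast formation and bone remodelling through its own receptor and gp130, had levels of 2.56 with beta-TCP and 1.08 in control at day 4. The levels were 2.95 with beta-TCP and 5.4 in control at day 7, and 0.726 with beta-TCP and 1.41 in control at day 14. Its differences of 0.77, -0.70 and -0.48 had the same signs as those of IL6 on each day and stayed under 2-fold. With a pseudocount of 0.25 IL11 was over 2-fold higher with beta-TCP at day 4 (1.08), and LIF at day 7 (1.05). On the control arrays IL11 also stood highest at day 7 (1.62 above day 4), while on the beta-TCP arrays days 4 and 7 differed by 0.15.

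**Figure D2:**
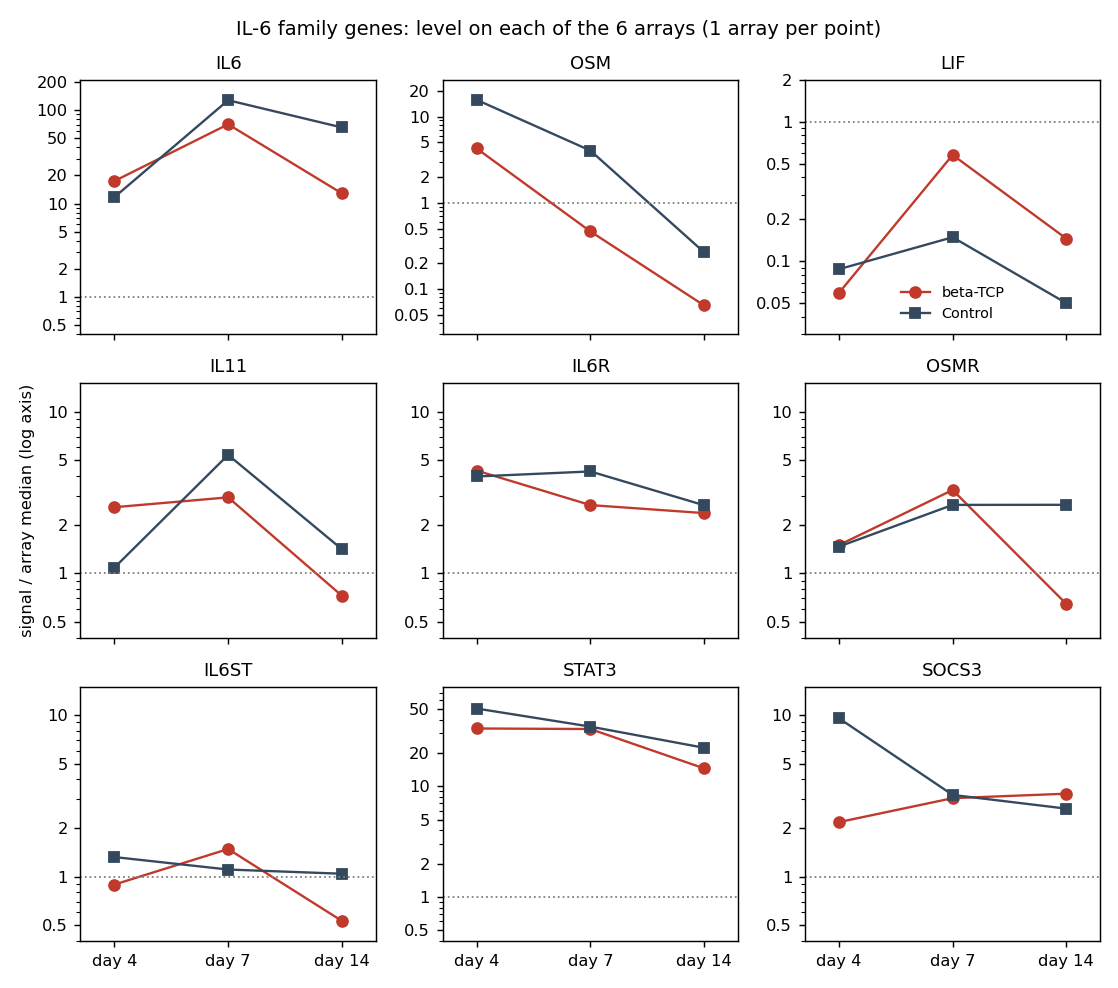
Level (signal divided by the array median, log axis) of the 9 genes on each array, from the probe set with the highest mean, for beta-TCP (circles) and control (squares) at days 4, 7 and 14; each point is 1 array and the dotted line is the array median. IL6 peaks at day 7 in both treatments (70.7 and 128), OSM is lower at each later day and lower with beta-TCP on each day, and SOCS3 is high on the control array of day 4 alone (9.54).

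Among the receptor chains, only OSMR differed 2-fold between treatments, at day 14. The leading IL6R probe set, for the chain that gives cells their own response to IL-6, had levels of 4.31 with beta-TCP and 3.97 in control at day 4. It had 2.64 with beta-TCP and 4.26 in control at day 7, and 2.35 with beta-TCP and 2.63 in control at day 14. Its differences were 0.10, -0.53 and -0.12, and with arrays scaled by their 90th percentile those of days 4 and 14 turned to -0.11 and 0.20. The second IL6R probe set lay between 0.0516 and 0.210 on all arrays, far under the median, and differed by at most 0.09 in size.

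OSMR, which pairs with gp130 to bind oncostatin M, had levels of 1.49 with beta-TCP and 1.46 in control at day 4. At day 7 they were 3.27 with beta-TCP and 2.65 in control, and at day 14 they were 0.645 with beta-TCP and 2.65 in control. The treatments were thus close at days 4 and 7 (differences of 0.02 and 0.23), and the beta-TCP array of day 14 read lower than all the other arrays (difference -1.15). That difference was -0.92 when arrays were scaled by their 90th percentile and -0.52 with a pseudocount of 4, both short of 2-fold. IL6ST, the shared chain, stayed near the array median, from 0.532 on the beta-TCP array of day 14 to 1.48 on that of day 7. Its differences were -0.29, 0.24 and -0.41. At day 14 the difference was negative for IL6, OSM, IL11, OSMR, IL6ST and the leading probe sets of IL6R and STAT3. The beta-TCP array of that day is the one that stood apart, and its part in these differences was not tested.

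STAT3, the transcription factor that carries the signal to the nucleus, was read by 4 probe sets that did not all run alike. On the leading one the level was 33.3 with beta-TCP and 50.4 in control at day 4, 32.9 with beta-TCP and 34.6 in control at day 7, and 14.5 with beta-TCP and 22.3 in control at day 14. Its differences were -0.58, -0.07 and -0.59. All 4 were lower with beta-TCP at day 4, by differences of -0.70 to -0.35, none of them 2-fold. At day 7 the 4 differed by -0.07 to 0.38, and at day 14 by -0.59 to 0.29, so they disagreed in sign on both days. Over time they ran together: day 14 minus day 4 was between -1.23 and -0.76 on the beta-TCP arrays and between -1.67 and -1.14 on the control arrays. All probe sets that were at least 2-fold lower between these days made up 13.0% and 6.03%, in the same order.

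SOCS3, the STAT3 target that blocks gp130, was high on 1 array. Its leading probe set had a level of 2.17 with beta-TCP and 9.54 in control at day 4. The levels were 3.06 with beta-TCP and 3.20 in control at day 7, and 3.26 with beta-TCP and 2.63 in control at day 14. All arrays but the day 4 control therefore lay between 2.17 and 3.26, and the differences were -1.73, -0.05 and 0.23. With a pseudocount of 16 the day 4 difference was -0.49, short of 2-fold. The second probe set, of the CfaAffx type, had levels of 0.678 with beta-TCP and 2.68 in control at day 4, 0.296 with beta-TCP and 1.5 in control at day 7, and 0.0323 with beta-TCP and 0.108 in control at day 14. Both probe sets were at least 2-fold lower at day 4 (-1.73 and -1.13). They parted at day 7, where the second stood at -0.95 and the first at -0.05. They parted also at day 14, where the second read lowest of its own range on both arrays and the first did not.

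Whether beta-TCP sites differed on average was tested with limma, with additive terms for day and treatment on the 6 arrays and 2 residual degrees of freedom. Limma draws each probe set's variance toward that of all probe sets, here with 6.56 prior degrees of freedom. Standard errors and p-values thus rest largely on other probe sets, and fits with a day left out were moderated in the same way. The fit took the 25608 probe sets whose mean reached the 40th percentile, with p-values adjusted over all of them. Of the 14 family probe sets 12 entered it, and the LIF and second IL6R probe sets fell under the filter. None of the 12 passed an adjusted p of 0.05 (0 higher and 0 lower), and neither did any of the 25608 (0% of all). At an unadjusted p under 0.05 there were 1 of the 12 (OSM) and 1057 of all (4.13%). OSM differed by -1.23 ± 0.37 (SE, limma, adjusted p = 0.922), lower on 3 of 3 days. IL6 differed by -0.86 ± 0.48, the leading SOCS3 probe set by -0.52 ± 0.41, the second by -0.73 ± 0.32 and the leading STAT3 probe set by -0.41 ± 0.30 (limma, adjusted p = 0.99997 each).

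The OSM result depended on the day 14 pair. Without that pair OSM fell by 1.72 on the log2 scale with beta-TCP (SE 0.31, limma, adjusted p = 0.0253), lower on 2 of 2 days, with 1 residual degree of freedom, and 108 of the 25608 probe sets passed. Without the day 4 pair it stood at -1.01 (limma, adjusted p = 0.99998) and without the day 7 pair at -0.95 (limma, adjusted p = 0.9997). The leading SOCS3 probe set had -0.89 ± 0.37 without the day 14 pair (limma, adjusted p = 0.402) and 0.09 without the day 4 pair, so its direction rested on day 4. IL6 had -1.55 without the day 4 pair and -0.16 without the day 14 pair, neither past the threshold.

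Between days, OSM was the 1 family probe set of 12 that passed the F test over days (limma, adjusted p = 0.0454), where 290 of all 25608 (1.13%) passed. OSM fell by 3.01 on the log2 scale between days 4 and 14 (limma, adjusted p = 0.0167), beside 2.50% of all probe sets that passed as lower and 0.773% as higher. Day 14 and the scale of its deposited values cannot be told apart, and OSM is a CfaAffx probe set, the type whose median relative to Cfa was lowest at day 14. That median came from probe sets with higher means than that of OSM. OSM passed the F test with Cfa and CfaAffx probe sets scaled apart, but not with CfaAffx probe sets alone. It did not pass either with pseudocounts of 0.25, 4 or 16, with the probe sets of a gene averaged, with no filter, or without the day 4 pair. IL6 was 2.65 higher at day 7 than at day 4, averaged over treatments, without passing (limma, adjusted p = 0.173, 0 of all probe sets passed for day 7 minus day 4, and 2 of the 12 family probe sets, IL6 and OSM, had an unadjusted p under 0.05, beside 11.0% of all). When the day 14 pair was left out, IL6 and OSM both passed for days 7 and 4, with 1880 of all 25608. The 4 STAT3 probe sets were lower at day 14 than at day 4 by differences of -1.35 to -0.96, with adjusted p from 0.0901 to 0.172 (limma).

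Other cell types differed between the same arrays. Of the neutrophil markers, 6 of 10 had a probe set, and MPO, a defining granule gene, lay under the array median on all 6 arrays. The summed level of the 6 was 929 with beta-TCP and 1711 in control at day 4, 969 with beta-TCP and 1437 in control at day 7, and 105 with beta-TCP and 299 in control at day 14. The sum was thus lower with beta-TCP on each day and lower at day 14, as was OSM. From day 4 to day 7 the sum rose with beta-TCP (929 to 969) and fell in control (1711 to 1437). OSM fell in both, from 4.26 to 0.465 with beta-TCP and from 15.6 to 4.03 in control. Most of the neutrophil sum came from the calprotectin genes S100A8 and S100A9, with levels of 474 and 428 with beta-TCP and 824 and 840 in control at day 4. Lower with beta-TCP by any amount were 5 of the 6 markers at day 4, 4 at day 7 and 4 at day 14. The median difference over all probe sets lay near 0 on these days (0.04, -0.02 and -0.05). Lower readings were thus common among all probe sets, and counts of lower markers alone say little. S100A8, S100A9, LTF and CSF3R were lower on each day. The differences at days 4, 7 and 14 were -1.39, -1.85 and -0.998 for LTF, and -0.34, -1.49 and -2.06 for CSF3R. MPO had differences of 0.13, 0.04 and 0.52 and the collagenase gene MMP8 of -0.94, 0.16 and 0.42, so MPO and MMP8 did not follow the sum on every day. Stratified epithelium markers, of which 9 of 11 had a probe set and KRT1 lay under the median throughout, summed to 9.50 with beta-TCP and 112 in control at day 4. The sums were 20.1 with beta-TCP and 20.8 in control at day 7, and 9.31 with beta-TCP and 7.34 in control at day 14. The day 4 control array therefore held both the highest SOCS3 levels and the highest epithelial sum. Macrophage and monocyte markers (9 of 9 with a probe set) summed to 588 with beta-TCP and 705 in control at day 4, 598 with beta-TCP and 889 in control at day 7, and 588 with beta-TCP and 668 in control at day 14. The macrophage sum was thus also lower with beta-TCP on each day, but its largest part was LYZ (371 with beta-TCP and 438 in control at day 4). On each day 7 of the 9 markers were lower and 2 higher, and these were not the same genes throughout. Higher with beta-TCP were CSF1R (0.41) and MRC1 (0.93) at day 4, and MRC1 (0.52) and MSR1 (1.12) at day 7. At day 14 CD14 (0.08) and CD68 (1.59) were higher. T cell markers (7 of 7, with CD8A and CD5 under the median throughout) summed to 28.4 with beta-TCP and 18.2 in control at day 4, 18.8 with beta-TCP and 31.0 in control at day 7, and 12.4 with beta-TCP and 17.7 in control at day 14. At day 4 the T cell sum was thus higher with beta-TCP, opposite to OSM. The part of these cell types in the OSM and SOCS3 differences was not tested.

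**Figure D3:**
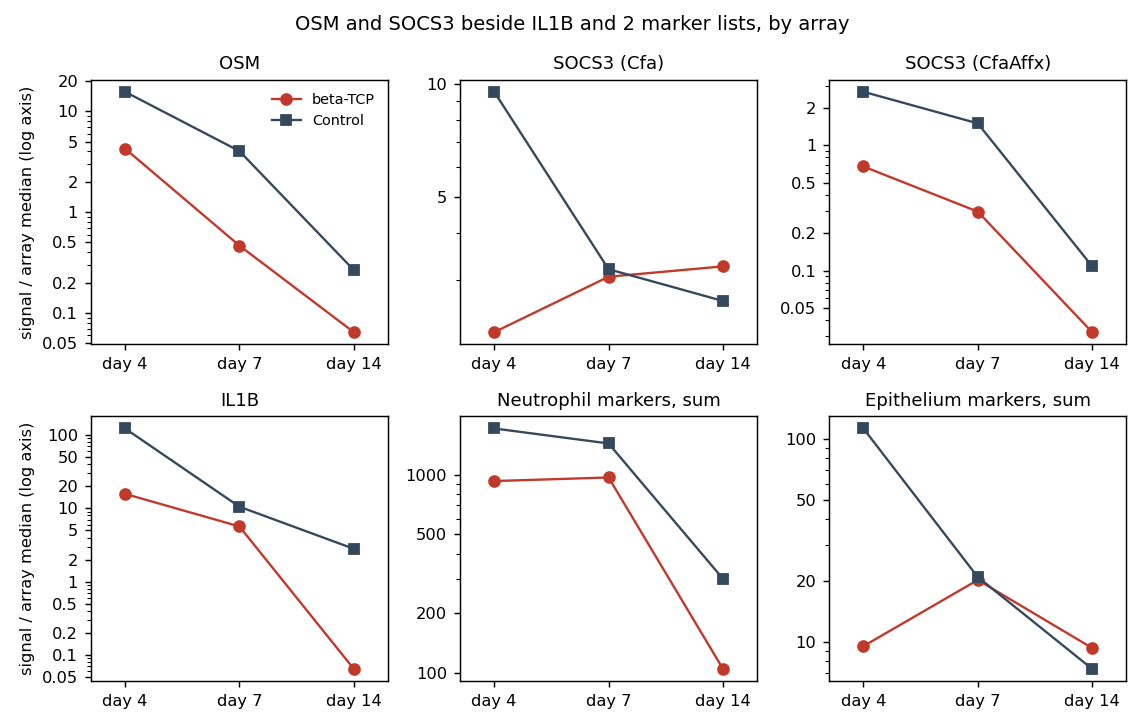
Levels of OSM, both SOCS3 probe sets and IL1B, and summed levels of 6 neutrophil and 9 stratified epithelium markers (signal divided by the array median, log axes), for beta-TCP (circles) and control (squares), 1 array per point. OSM, IL1B and the neutrophil sum are lower with beta-TCP on all 3 days, and the leading SOCS3 probe set and the epithelial sum are highest on the day 4 control array (9.54 and 112).

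Genes whose profile over the 6 arrays lay nearest to that of each main member were found by the root mean square difference of centred log2 profiles, over 10530 genes. For OSM, whose own profile spanned 3.96 log2 units, these were GRAMD1A (0.13), the cytidine deaminase gene CDA (0.30) and the leukocyte adaptor gene LCP2 (0.34). For IL6, spanning 3.34 units, they were the prostaglandin D2 receptor gene PTGDR (0.36), the neurotrophin gene BDNF (0.49) and PROM1 (0.53). For the leading SOCS3 probe set, spanning 1.73 units, they were TMPRSS11D (0.09), PLSCR1 (0.18) and IL36B (0.24). TMPRSS11D is an airway and squamous epithelial protease gene, PLSCR1 a scramblase gene and IL36B an epidermal cytokine gene. That profile is high on the day 4 control array alone, so its nearest genes are others high on that array. The second SOCS3 probe set, which ran otherwise at day 7 (difference -0.95), was not used here. LIF spanned only 0.59 units, and its nearest genes C18H11orf68, KLF12 and USE1 (0.05 to 0.09) carry little information at such a range.

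The other genes of the pathway were taken from lists of ligands, receptor chains, kinases, inhibitors, targets and inducers, 72 genes of which 61 had a probe set. By their leading probe sets, 7 were lower by 2-fold or more and 2 higher at day 4, 8 and 2 at day 7, and 8 and 1 at day 14. Over all 15112 genes the shares lower and higher were 2.43% and 3.22% at day 4, 2.57% and 2.21% at day 7, and 11.0% and 3.65% at day 14. Medians of the 61 were -0.29, -0.36 and -0.34, against 0.07, -0.05 and -0.10 over all genes. In limma's fit 50 of the 61 were over the filter and 0 passed for the average beta-TCP effect (adjusted p), with 14 at an unadjusted p under 0.05 (2 higher, 12 lower). Over the 10530 genes in the fit, 1.20% were higher and 3.40% lower at that threshold. The lists, that of the inducers included, were chosen with earlier results of these data known. The shares over all genes therefore cannot serve as a test of the lists.

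The list of inducers of IL6 held most of these lower genes at days 4 and 14, and 2 of the 8 at day 7. Of 10 with a probe set, 6 were at least 2-fold lower at day 4, 2 at day 7 and 6 at day 14, with medians of -1.10, -0.47 and -1.29. These counts and medians include NFKBIA, an NF-kB inhibitor gene and not an inducer, which was among the 6 at day 4 (-1.12) and at day 14. At day 4 the lowest were IL1B (-2.89) and IL1A (-1.94), the interleukin-1 cytokines, PTGS2 (-2.59), the inducible prostaglandin synthase, and NFKBIZ (-1.49), a nuclear co-activator of IL6. At day 7 PTGS2 (-1.27) and the endotoxin receptor gene TLR4 (-1.05) were lower and the parathyroid hormone receptor gene PTH1R was higher (2.56). At day 14 PTGS2 (-3.18), the NF-kB inhibitor gene NFKBIA (-2.82), IL1B (-1.84) and IL1A (-1.83) were the lowest. IL6 itself was 0.54 higher at day 4, when IL1B had levels of 15.8 with beta-TCP and 123 in control. In the F test over days IL1A and IL1B passed (2 of the 50, limma), beside 1.13% of all 25608 probe sets. The 50 are genes read by their leading probe sets, so that share is not a like one. In a fit on leading probe sets alone, 312 of 10530 genes passed the F test. With pseudocounts of 4 or 16, 0 of all probe sets passed it, and day 14 cannot be told apart from the scale of its values.

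Of the other gp130 ligands (4 of 7 with a probe set: CTF1, CLCF1, IL27 and EBI3), 0 differed 2-fold on any day. Among 5 other receptor chains, LIFR, the LIF receptor, was at least 2-fold higher at day 14 (2.14), with a level of 4.24 with beta-TCP and 0.192 in control, and CNTFR was lower at day 7 (-1.17). Of 9 kinases, STATs and adaptors 0 differed 2-fold on any day. The nearest were STAT5B at day 4 (-0.98) and JAK2 at day 7 (-0.999, just short of 2-fold). JAK2, STAT5B, GRB2 and GAB1 were lower on all 3 days. Over the 61 pathway genes, 23 were lower and 2 higher on all 3 days, beside 13.2% and 10.3% of all probe sets. These shares are over probe sets and not over leading probe sets of genes, so they are not like for like. Of 9 feedback inhibitors other than SOCS3, SOCS2 was higher at days 4 (1.08) and 7 (1.02), and the phosphatase gene PTPRE was lower at day 7 (-1.19). SOCS1 lay under the array median on every array.

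STAT3 and acute phase targets (21 of 26 with a probe set) had medians of -0.45, -0.42 and -0.07 at days 4, 7 and 14. At day 4 FOS (-1.04), an immediate early factor, was lower and MYC, a growth regulator, was higher (1.34). The transcriptional repressor gene BCL6 (-1.16), the protease inhibitor gene TIMP1 (-1.35) and the survival gene BCL2L1 (-1.02) were lower at day 7, and MYC was lower at day 14 (-1.06). Of the RANKL axis, TNFSF11, which encodes RANKL, was lower at day 7 (-1.09), and its decoy receptor gene TNFRSF11B was under 2-fold on each day. Among receptor shedding enzymes ADAM10 was lower at day 14 (-1.09).

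**Figure D4:**
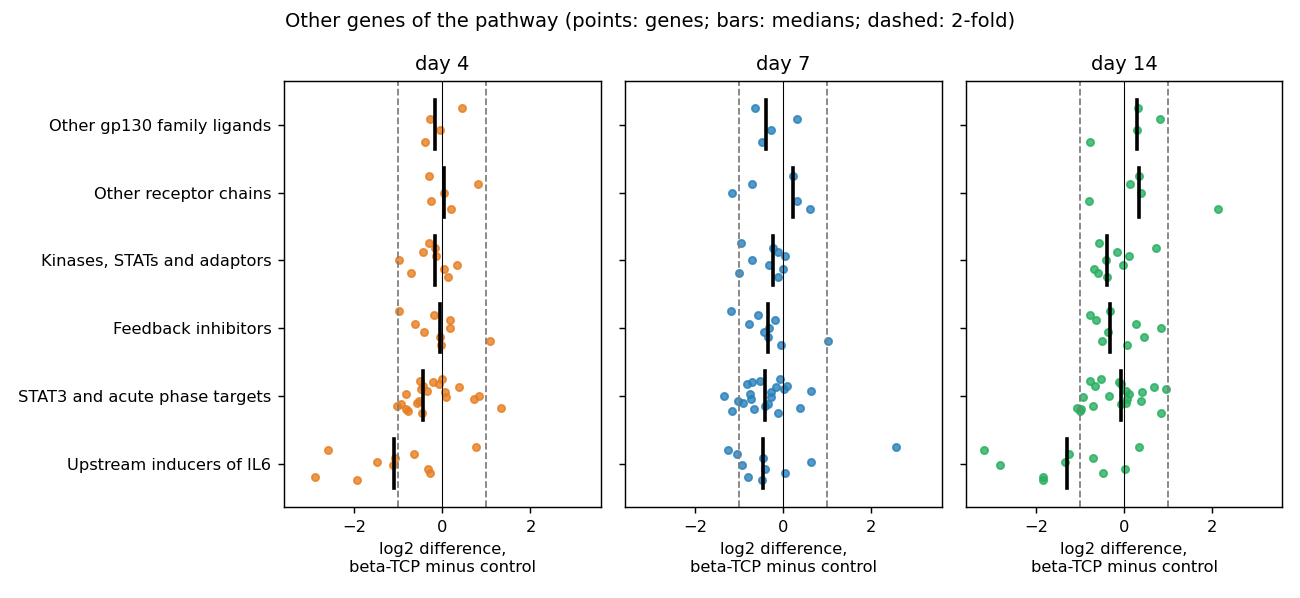
Log2 difference, beta-TCP minus control, of the other pathway genes (1 point per gene, leading probe set) by list at days 4, 7 and 14; black bars are medians, dashed lines 2-fold, and lists with under 4 measured genes are not drawn. The list of inducers of IL6, which also holds the inhibitor gene NFKBIA, has the lowest median on each day (-1.10, -0.47 and -1.29). Most other medians lie within the dashed lines near 0.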

How the data were processed

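The deposited table holds 42860 probe sets on 6 arrays. For days 4 and 7 the deposited values are a signal divided by the array median, with a lowest value of 0.01. For day 14 the authors deposited an intensity not divided by any array median. Both units were read from the values, since the software is not given in the sources used here. There are no detection calls, so background could not be judged. The number of arrays limits the precision. Each array was divided by its median, and log2(level + 1) was taken, a pseudocount of 1. Left out were 90 pairs of probe sets ending in _a_at and _at (180 probe sets, no family member). A probe table gave 1 gene for 29254 probe sets, several for 439 and none for 13167, and 27680 matched the RefSeq table of UU_Cfam_GSD_1.0 by gene ID, used for names. A gene's leading probe set is the one with the highest mean.

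The fit used limma 3.58.1 in R 4.3.3 (two-sided, Benjamini-Hochberg), with day and treatment additive and day as the block that pairs arrays. Differences of the treatment effect between days enter its residual, and p-values measure only that mixture, with variances moderated across probe sets. Members and lists were chosen with earlier results of these data known. All 9 members are named. From each list the genes at least 2-fold different on a day are named, at most 4 a day, with a few others chosen after their values were seen (STAT5B, JAK2, SOCS1, IL1B levels). For IL6, OSM, LIF and SOCS3 the 3 nearest profiles are named. Alternatives were other scalings, pseudocounts, filters, probe set types and days left out. No sequences are shown, and no coordinates, since no build is named.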

Additional observations from a re-analysis of the deposited data

Results flagged for a closer look

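IL6 ran in opposite directions on different days. It was higher with beta-TCP at day 4 (0.535) and lower at day 14 (-2.26), with day 7 between them (-0.85). With 1 array a group, the difference between the days was not tested. Under the 13 alternatives run for it, the sign stayed positive at day 4 (0.27 to 0.56) and negative at day 14 (-3.28 to -1.49). Many of these could not have changed it. A changed pseudocount cannot turn a sign, and choices among probe sets left the 1 IL6 probe set as it was. With arrays scaled by their 90th percentile the differences were 0.30 and -1.84, and with quantile normalization 0.30 and -1.73.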

How the results depend on the processing

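The count of family probe sets at least 2-fold different at day 4 (3 of 14) was 4 with a pseudocount of 0.25 (1 of them higher, IL11), 2 with one of 4, 0 with one of 16 and 1 with Cfa probe sets alone. At day 7 (1 of 14) it was 3 with a pseudocount of 0.25 (1 of them higher, LIF), 0 with one of 4 or 16 and 0 with Cfa probe sets alone. At day 14 (2 of 14) it was 8 with values as deposited, undivided, since the medians of its 2 arrays differ, and 1 when arrays were scaled by their 90th percentile, with a pseudocount of 4 or 16, and with Cfa or CfaAffx probe sets alone. These 2 counts of 1 sum to the 2 probe sets, 1 of each type. The calls for the average beta-TCP effect were 0 under every alternative run but one: leaving out a day pair gave 0 to 1 (OSM, without day 14). The calls between days (1 of 12) were 5 with undivided values, where 19634 of all passed, 2 with arrays scaled by their 90th percentile, and 0 with a pseudocount of 0.25, 4 or 16, with the probe sets of a gene averaged, with Cfa or CfaAffx probe sets alone and with no filter. Leaving out a day pair gave 0 to 2. The causes of these changes in calls were not tested.

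Leaving out a day pair also turned some average effects. IL11 (-0.13) ran between -0.59 and 0.15, with 0.04 without day 14, OSMR (-0.30) between -0.57 and 0.12, and SOCS3 (-0.52) between -0.89 and 0.089. Scaling by the 90th percentile moved the median of all probe sets at day 14 from -0.05 to 0.09. No day difference of at least 2-fold changed sign under any alternative run, but a changed pseudocount could not have turned one. Scaling the 2 probe set types apart was chosen after seeing the data. The fit has day as its block, which pairs beta-TCP with control, and the labels give no replicate numbers for another pairing. With 1 array a group, no replicate could be left out within a group.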
